A study of Mus musculus with 6 samples.

Results

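Genes for the proteasome and its inducible form, the immunoproteasome, were compared between myeloid cells of the infarcted heart and of the spleen. The members were the 49 genes whose name on the array begins with Psm, then a letter from a to g, then a digit. They are 49 of the 28312 named genes on the array and are read by 61 of its probes. Psmb8, Psmb9, Psmb10, Psme1 and Psme2 formed the immunoproteasome group. Each gene took its value from the probe with the highest mean signal. Of the 49 genes, 48 code for subunits, activators, inhibitors or chaperones of the proteasome. The exception is Psmc3ip, which codes for a cofactor of meiotic recombination and matched by name only.

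RNA was measured on 6 single-colour Agilent arrays, 3 of cells from hearts (heart 1, heart 2 and heart 4) and 3 of cells from spleens (spleen 1, spleen 2 and spleen 4). All mice were C57BL/6N wild type and were studied at day 3 after acute myocardial infarction (AMI), so that neither tissue is an uninjured control. The sort kept cells with high CD45 and CD11b that stained weakly for Ly6G, for CD49b/DX5 and NK-1.1 (natural killer cells), for CD90.2/Thy-1.2 (T cells) and for CD45R/B220 (B cells). Each array holds cells of 1 organ, per the series' design text. The labels give neither age nor sex and do not tie a heart to a spleen of the same mouse. The 8 genes listed as markers of sorted myeloid cells were well above background on all 6 arrays, and none of the 8 passed the limma test at an adjusted p of 0.05. At an unadjusted p under 0.05, 3 of the 8 were higher in heart (17.9% of all genes tested), all with no overlap between the tissues (24.1% of all genes tested): Cd68 (1.85 ± 0.51, SE, on the log2 scale; limma adjusted p = 0.0556), Adgre1 (1.19 ± 0.42; 0.108) and Ccr2 (1.07 ± 0.35; 0.0896). Of the 8, 6 lay above 0, the others being Csf1r (0.70 ± 0.34; 0.213), Lyz2 (0.14 ± 0.33; 0.816) and Itgam (0.03 ± 0.22; 0.938). The 2 below 0 were Ly6c1 (-0.45 ± 0.28; 0.323) and Ptprc (-0.12 ± 0.16; 0.673). The median difference of the 8 was 0.42, and their part in the differences of proteasome genes was not tested.

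The proteasome degrades proteins tagged with ubiquitin. Its barrel-shaped core is made of outer rings of alpha subunits and inner rings of beta subunits, a few of which cut the protein chain, and a regulatory particle on the end of the barrel recognises, unfolds and feeds in the substrate. In cells exposed to interferon gamma, and at rest in many cells of the immune system, Psmb8, Psmb9 and Psmb10 take the places of the catalytic subunits Psmb5, Psmb6 and Psmb7, and the activator made of Psme1 and Psme2 can cap the barrel, which alters the peptides made for presentation on MHC class I.

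Sequences upstream of the catalytic genes were read from RefSeq promoters of the build GRCm38.p6, which cover 250 bases before and 50 after a start site and were found for 41 of the 49 genes. Of the genes in the catalytic pairs compared further on, stretches are shown for those with a motif match. No match to any motif searched was found for Psmb7 or Psmb10. Motifs were searched on both strands, a palindrome being counted once, and capitals mark the match. A member gene was counted where any promoter listed for it held a match, while shares over all promoters count single promoters. The antioxidant response element (TGACNNNGC, the site of NRF-type factors) was found for 6 of the 41 member genes and in 12.4% of all 32851 promoters. The 6 were Psmb5, Psmb6, Psmc6, Psmd12, Psmd9 and Psme4, and none of the 5 immunoproteasome genes was among them. The interferon gamma activated site (TTCNNNGAA) was found for 3 member genes, Psmb8, Psmd2 and Psmg1, and in 8.30% of all promoters. Psmb5 was read on the minus strand at chr14:54618009-54618067, Psmb6 on the plus strand at chr11:70525323-70525356 and Psmb8 on the plus strand at chr17:34198073-34198131.
Psmb5: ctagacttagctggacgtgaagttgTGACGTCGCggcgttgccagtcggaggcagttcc
Psmb6: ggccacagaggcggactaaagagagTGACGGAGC
Psmb8: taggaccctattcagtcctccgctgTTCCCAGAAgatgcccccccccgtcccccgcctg

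The interferon response element (GAAA, then 2 bases of any kind, then GAAA) was found for 5 member genes, Psmb3, Psmd4, Psmd9, Psme1 and Psmg4, and in 3.44% of all promoters. A GC box (GGGCGG) was found for 23 of the 41 genes, 3 of them in the immunoproteasome group, and in 35.7% of all promoters. Psmb9 lies head to head with Tap1, which codes for a chain of the transporter that carries peptides into the endoplasmic reticulum, and the promoters of the pair share 275 of 300 bases. The 225 bases between their start sites, at chr17:34187331-34187555 and read on the minus strand, which is that of Psmb9, held 1 GC box, in capitals. These matches describe letters in the window and are not evidence of binding.
Psmb9 to Tap1: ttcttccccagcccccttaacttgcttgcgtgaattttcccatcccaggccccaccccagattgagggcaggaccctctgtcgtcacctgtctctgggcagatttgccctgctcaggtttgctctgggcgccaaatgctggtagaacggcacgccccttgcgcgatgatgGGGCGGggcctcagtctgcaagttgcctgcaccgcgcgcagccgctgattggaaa

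Across the family, levels were higher in heart than in spleen for most genes by a small amount, and few of the differences passed the test. A level is the log2 signal minus the 75th percentile of its array, and a difference is heart minus spleen on that log2 scale, with the standard error (SE) of the limma fit. Of the 49 genes, 47 were well above background on every array of at least 1 tissue and were tested. The others, Psma8 (the testis form of an alpha subunit) and Psmb11 (the catalytic subunit of thymic epithelium), were not well above background on any of the 6 arrays. At a Benjamini-Hochberg adjusted p under 0.05 from limma, 7 of the 47 rose in heart (14.9%) and none fell, where 8.89% of the 16358 genes tested rose and 6.5% fell. At an unadjusted p under 0.05, 17 members were higher and 2 were lower, where 17.9% of all genes tested were higher and 13.7% lower. The 7 were Psme3, Psmb7, Psmb2, Psmc1, Psmd1, Psmd11 and Psmd12. The difference was above 0 for 42 of the 47 members and for 58% of all genes tested. All 3 heart values lay above all 3 spleen values for 25 members (24.1% of all genes tested), all 3 lay below for 1, Psmd5 (16.6% of all genes tested), and the tissues overlapped for 21. The median difference over the 47 members was 0.44, in a range from -2.21 to 1.99, and the median over all genes tested was 0.10. In a bulk sample, fewer cells of a type and less RNA per cell cannot be told apart.

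The size of that offset depended on how arrays were put on 1 scale. With quantile scaling, the members' median was 0.14 against 0.04 over all genes tested, 35 members lay above 0, and the calls were Psmb7 and Psme3 higher and Psmd5 lower. The 2 higher calls are 4.26% of the members, below the 8.4% of all genes called higher with that scaling (6.94% were lower). With each array set to its median, the members' median was 0.56 against 0.22 over all genes, 44 lay above 0, and Psmb7 and Psme3 were the 2 calls, again 4.26% of the members against 7.89% of all genes. Relative to the median of all genes, the members' median was 0.34 with the 75th percentile, 0.10 with quantile scaling and 0.34 with the array median. Psma7, Psmb1, Psmb3, Psmb8, Psmc3, Psmd4 and Psme1 turned from above to below 0 with quantile scaling, and Psmg2 and Psmg3 from below to above 0 with the array median.

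**Figure D1:**
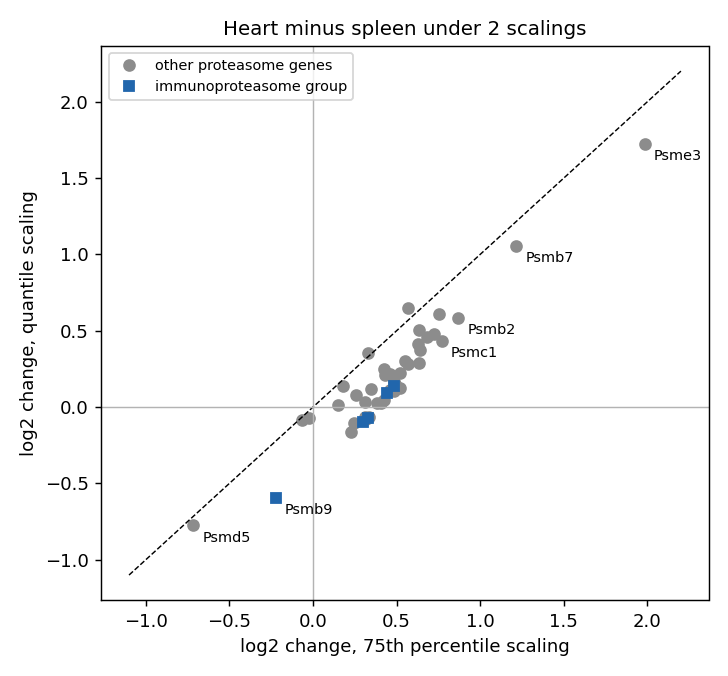
Heart minus spleen log2 difference of 46 proteasome genes with 75th percentile scaling (x axis) and with quantile scaling (y axis); Psmc3ip is left out, blue squares are the 5 immunoproteasome genes and the dashed line marks equal values. Most points lie below the line, Psme3 and Psmb7 keep the highest values on both axes, and 7 genes lie right of 0 on the x axis and below 0 on the y axis.

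Spleen 1 was the lowest of the 6 arrays for 37 of the 47 members, and heart 1 the highest for 21. The standard deviation (SD) over the 3 samples was larger in spleen for 42 of the 47 members, with a median SD of 0.31 in spleen and 0.10 in heart, against 84.3% of all genes tested with the larger SD in spleen. Leaving out spleen 1 left 4 members called higher (9.28% of all genes tested), without spleen 2 there were 3 (6.24%), and without spleen 4 there were 12 (13.9%). Leaving out heart 1, heart 2 or heart 4 left 0, at which 2.12% to 2.2% of all genes tested were called higher. With the slide as a fixed block, which rests on the only slide with both tissues (heart 1 and spleen 4), 0 members were called, and 0.44% of all genes tested were higher. On that slide 37 of the 47 members were above 0, against 50.6% of all genes, and the 7 called members were among them. In the pair of the later date in the sample titles (heart 4 and spleen 4), 36 of the 47 were above 0, against 47.7% of all genes, again with all 7.

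**Figure D2:**
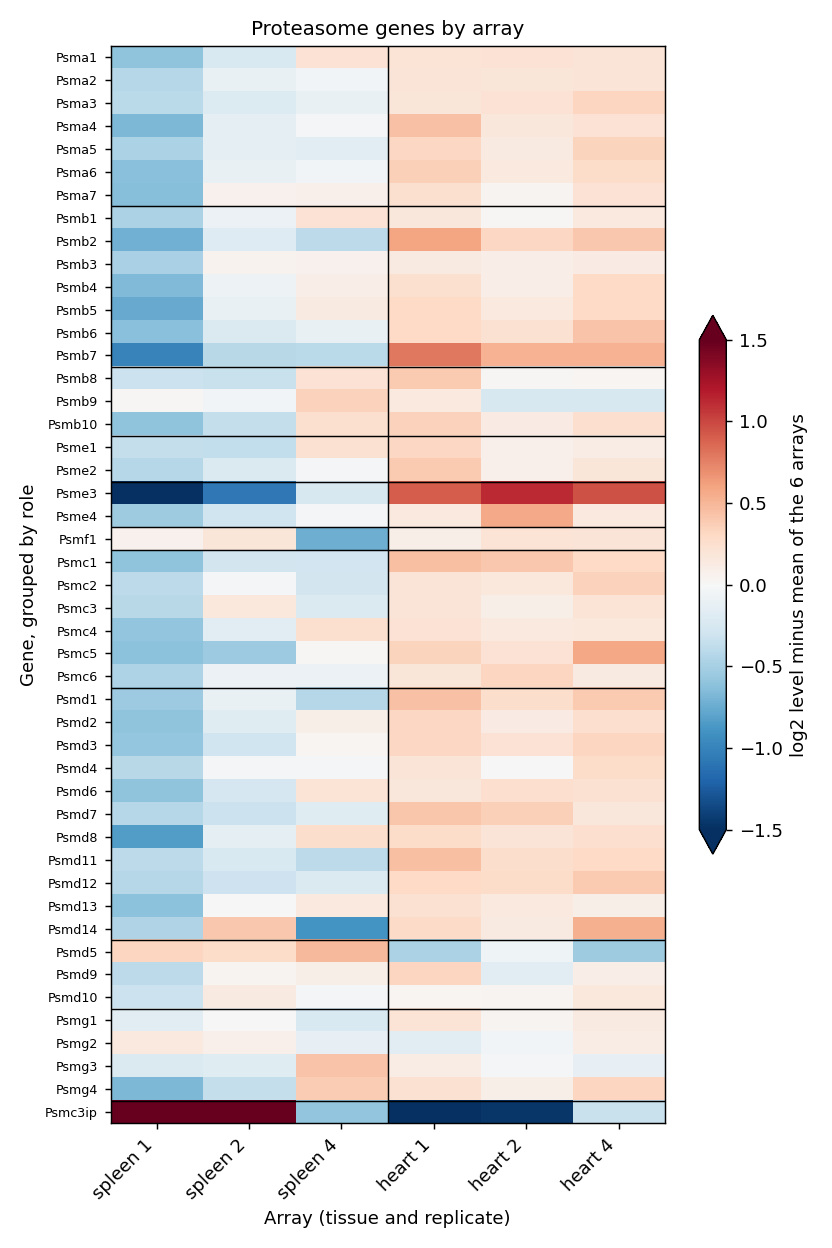
Heat map of the 47 tested genes (rows, grouped by role) in the 6 arrays (columns); colour gives the log2 level minus the mean of the 6 arrays, and the scale ends at plus and minus 1.5, so that darker values of Psme3 and Psmc3ip are not told apart. Most rows run from blue in spleen 1 to pale red in the hearts, with Psmb9, Psmd5, Psmg2 and Psmc3ip among those against that order.

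The sorted samples also differed in markers of other cells, and the part of these cells in the differences of proteasome genes was not tested. Summed levels below are in units of each array's 75th percentile. Genes are counted below as higher or lower only where called at the adjusted p. Of all genes tested, 8.89% were called higher and 6.5% lower, and 58% lay above 0. Of 8 neutrophil genes, 6 were called lower in heart and all 8 lay below 0. Their sum ran from 23.0 to 31.0 in heart against 546 to 1199 in spleen. Of 8 cycling-cell genes, 7 were called lower in heart and all 8 lay below 0, with sums of 1.27 to 2.03 against 12.2 to 128. No heart array had Top2a or Cdk1 well above background. B-cell genes summed to 0.82 to 1.35 in heart and to 4.06 to 140.0 in spleen, highest in spleen 1. Of 5 tested, 1 was called lower and all 5 lay below 0. Blk and Fcmr were not well above background in any heart. T and NK genes summed to 3.14 to 3.30 in heart and 3.82 to 65.5 in spleen, with 0 of 5 tested called and all 5 below 0. Cd3g, Cd3d, Klrb1c and Ncr1 were not well above background in any heart. Fibroblast genes were higher in heart for 5 of 5 tested (1.94 to 5.51 against 0.116 to 0.176), and Col3a1, Lum and Mgp were not well above background in any spleen. Cardiomyocyte genes were called higher for 3 of 5 tested, with 4 above 0 (0.536 to 0.861 against 0.191 to 0.302). Tnnt2, Actc1 and Mb were not well above background in any spleen. Erythroid genes (0 of 3 tested called; 0.306 to 0.448 in heart and 0.239 to 6.62 in spleen), dendritic-cell genes (0 of 6; 47.4 to 58.1 and 40.6 to 56.3) and endothelial genes (1 of 3 higher; 2.50 to 2.91 and 2.00 to 2.25) completed the lists.

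In the core particle, all 14 constitutive ring genes lay above 0 and 2 of them, Psmb7 and Psmb2, rose in heart. The median difference of the 14 was 0.49, and 10 of the 14 had all heart values above all spleen values. Of all genes tested, 58% lay above 0, 8.89% rose and 24.1% had all hearts above all spleens, with a median of 0.10. With quantile scaling 11 of the 14 were above 0 and their median was 0.14, against 0.04 over all genes. None of the 7 alpha subunits, which form the outer rings and gate the barrel, passed the test. Of the 7, 4 were higher at an unadjusted p under 0.05 (17.9% of all genes tested), and their differences ran from 0.33 to 0.55 over the 7. Psma4, the alpha subunit with the largest difference, had levels of 2.46, 3.00 and 3.11 in spleen 1, 2 and 4 and of 3.57, 3.30 and 3.35 in heart 1, 2 and 4, a difference of 0.55 ± 0.23 (SE, n = 3 per tissue; limma adjusted p = 0.157). Its hearts were all above its spleens, of which spleen 1 was the lowest. Psma7, with the smallest, had levels of 4.28, 4.97 and 4.98 in spleen and 5.15, 4.95 and 5.12 in heart, a difference of 0.33 ± 0.24 (SE; limma adjusted p = 0.403) that was -0.07 with quantile scaling. Heart 2 was below spleen 2 and spleen 4, so the tissues overlapped.

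Psmb2, a beta subunit without a catalytic site (probe at chr4:126361456-126364299 of mm9, the build of all probe positions), had levels of 2.79, 3.31 and 3.11 in spleen 1, 2 and 4 and of 4.09, 3.82 and 3.90 in heart 1, 2 and 4. It rose by 0.87 ± 0.20 (SE, n = 3 per tissue), or 1.83-fold, with a limma adjusted p of 0.0366. Over 21 alternatives the adjusted p ranged from 0.0302 to 0.297 and the call was lost in 12, among them quantile scaling and the date as a block. The lowest heart stood above the highest spleen. Psmb1, a further structural beta subunit, had the smallest difference of the rings, 0.23 ± 0.22 (SE; limma adjusted p = 0.540). Its levels were 4.36, 4.75 and 5.05 in spleen and 5.0, 4.85 and 4.98 in heart, with spleen 4 above every heart, and the difference was -0.16 with quantile scaling.

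**Figure D3:**
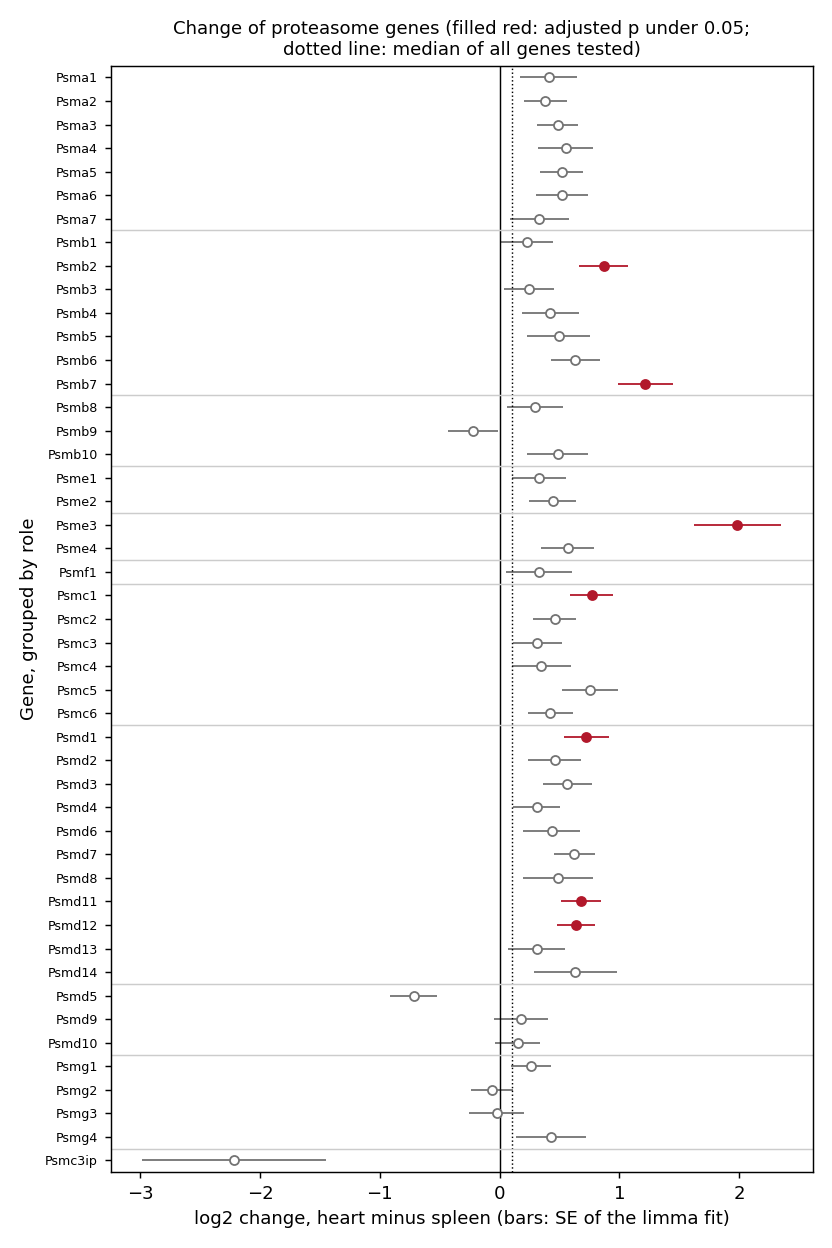
Heart minus spleen log2 difference of the 47 tested genes with 75th percentile scaling (points) and the SE of the limma fit (bars), in rows by role; filled red points had an adjusted p under 0.05, the solid line is 0 and the dotted line is the median of all genes tested, 0.10. The 14 ring genes and 17 regulatory particle genes all lie right of 0 under this scaling (11 and 15 of them with quantile scaling), and Psmb9, Psmd5, Psmg2, Psmg3 and Psmc3ip lie left of it.

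Of the 3 catalytic subunits of the constitutive proteasome, Psmb7 rose in heart, and the differences of Psmb5 and Psmb6 did not pass the test. Psmb7, which cuts after basic residues (probe at chr2:38468966-38489385), had levels of 1.01, 1.60 and 1.61 in spleen 1, 2 and 4 and of 2.81, 2.53 and 2.53 in heart 1, 2 and 4. The hearts stood well above the spleens, among which spleen 1 was the lowest. It rose by 1.22 ± 0.23 (SE, n = 3 per tissue), or 2.32-fold, with a limma adjusted p of 0.0202. It was 1.20 on the slide with both tissues and 0.92 in the later-date pair. The adjusted p over 21 alternatives ranged from 0.0162 to 0.248, and the call was lost in 6 of them. Psmb6, which cuts after acidic residues (probe at chr11:70341093-70341152), had levels of 4.76, 5.18 and 5.28 in spleen and 5.69, 5.62 and 5.81 in heart, a difference of 0.63 ± 0.20 (SE; limma adjusted p = 0.0853). Psmb5, which cuts after large hydrophobic residues (probe at chr14:55232957-55233016), had levels of 4.75, 5.39 and 5.63 in spleen and 5.80, 5.65 and 5.80 in heart, a difference of 0.49 ± 0.26 (SE; limma adjusted p = 0.252). For both genes every heart was above every spleen, though for Psmb5 heart 2 lay only just above spleen 4.

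None of the 5 immunoproteasome genes passed the test, and none had an unadjusted p under 0.05. Of the 5, 4 lay above 0 and Psmb9 lay below, with a median of 0.33, against 7 of 42 called and a median of 0.45 among the other tested members. Over all genes tested, 58% lay above 0 and the median was 0.10. Of these genes 8.89% were called higher and 6.5% lower, with 17.9% higher and 13.7% lower at an unadjusted p under 0.05. The difference between the immunoproteasome group and the other members was not tested. With quantile scaling 2 of the 5 were above 0 and the group's median was -0.07. Without spleen 4, 1 of the 5, Psmb10, was called higher (limma adjusted p = 0.0370, in a range of 0.0370 to 0.911 over its 21 alternatives). In that fit 13.9% of all genes tested were called higher.

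Psmb8, the inducible counterpart of Psmb5 (probe at chr17:34337771-34337830), had levels of 4.37, 4.36 and 4.91 in spleen 1, 2 and 4 and of 5.09, 4.72 and 4.72 in heart 1, 2 and 4. Spleen 4 stood above 2 of the hearts, so the tissues overlapped. The difference was 0.30 (95% confidence interval -0.26 to 0.85; limma adjusted p = 0.431) and was -0.09 with quantile scaling. Psmb9, the counterpart of Psmb6 (probe at chr17:34319174-34319233), had levels of 4.61, 4.55 and 4.94 in spleen and of 4.74, 4.35 and 4.35 in heart. Heart 2 and heart 4 lay below all spleens while heart 1 lay among them. Its difference was -0.22 (95% confidence interval -0.72 to 0.27; limma adjusted p = 0.514), and it stayed below 0 under all 21 alternatives, from -0.60 to -0.04. Psmb10, the counterpart of Psmb7 (probe at chr8:108459677-108459736), had levels of 4.79, 5.04 and 5.63 in spleen and of 5.74, 5.52 and 5.65 in heart, a difference of 0.49 (95% confidence interval -0.12 to 1.09; limma adjusted p = 0.246). Spleen 4 was level with the hearts and the other spleens were below them.

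Psme1 and Psme2 code for the alpha and beta chains of the interferon-inducible activator. Psme1 (probe at chr14:56200194-56200253) had levels of 4.49, 4.47 and 5.07 in spleen and of 5.15, 4.91 and 4.95 in heart, a difference of 0.33 (95% confidence interval -0.21 to 0.87; limma adjusted p = 0.374) that was -0.07 with quantile scaling. Psme2 (probe at chr14:56208888-56209346) had levels of 4.86, 5.08 and 5.27 in spleen and of 5.69, 5.37 and 5.48 in heart, a difference of 0.44 (95% confidence interval -0.02 to 0.91; limma adjusted p = 0.175). Psme1 overlapped between the tissues through spleen 4, and Psme2 was the only gene of the 5 with all hearts above all spleens. The Psme2 probes did not all run the same way. A second probe had a difference of 0.55 ± 0.21 (SE; limma adjusted p over probes = 0.138), and the third, designed on an Ensembl transcript that did not match the RefSeq table, had -1.03 ± 0.17 (SE; limma adjusted p over probes = 0.0161). Psme2b, a near-identical copy in the RefSeq table with no probe of its own name, can share this signal, so the values of Psme2 are uncertain.

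**Figure D4:**
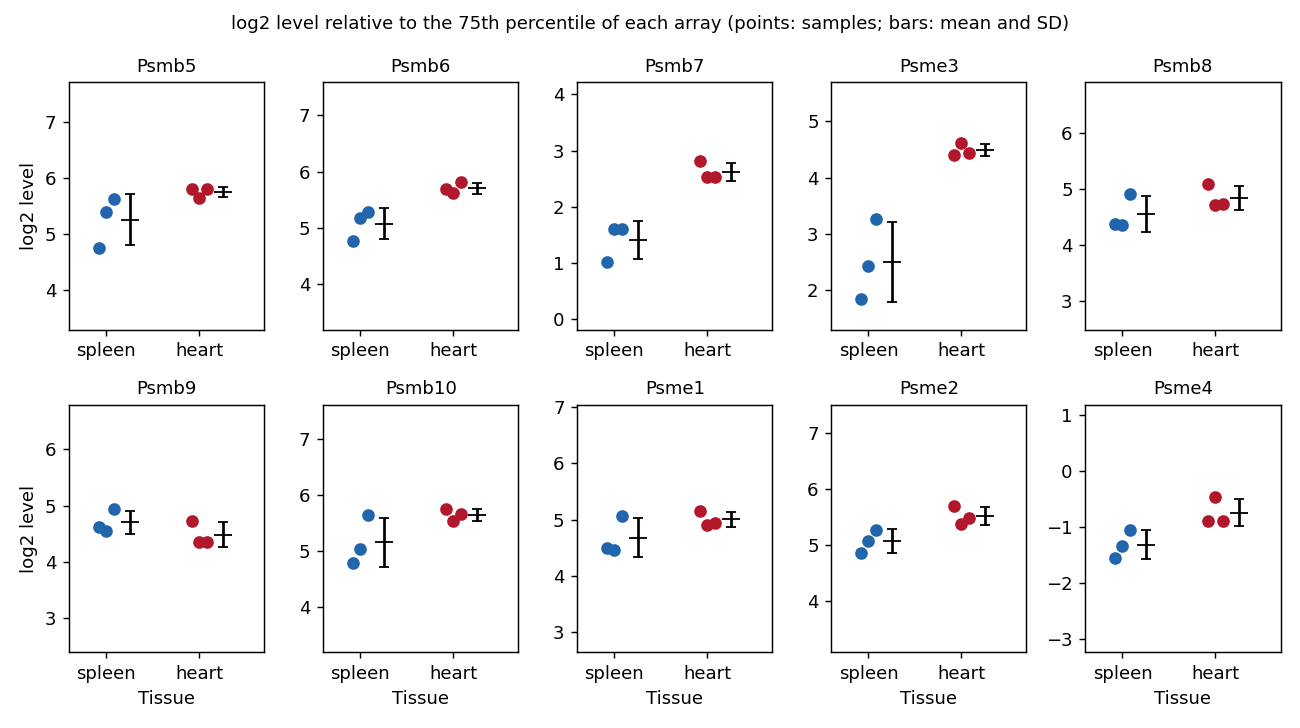
log2 level relative to the 75th percentile of each array for the catalytic subunits and activators, in spleen (blue) and heart (red); each point is a sample in the order 1, 2, 4, the bars are the mean and SD of 3 samples, and each panel has its own axis range of equal span. All hearts lie above all spleens for Psmb5, Psmb6, Psmb7, Psme2, Psme3 and Psme4, most widely for Psme3 and Psmb7. The tissues overlap for Psmb8, Psmb9, Psmb10 and Psme1.

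Setting each inducible subunit against its counterpart on the same array cancels any constant that scales the whole array. The level of 1 probe against another has no meaning by itself, so only the change of the difference between tissues was compared, by an exact two-sided permutation test over samples, for which 0.1 is the smallest p that 3 against 3 can give. Psmb9 minus Psmb6 was -0.15, -0.62 and -0.34 in spleen 1, 2 and 4 and -0.95, -1.27 and -1.46 in heart 1, 2 and 4. All hearts lay below all spleens, by -0.86 on average (exact p = 0.1; Benjamini-Hochberg adjusted over the 3 pairs 0.15). The difference was -0.61 on the slide with both tissues, -1.12 in the later-date pair and -0.72 in the earlier-date samples. Psmb10 minus Psmb7 was 3.78, 3.44 and 4.02 in spleen and 2.94, 2.99 and 3.12 in heart, again with no overlap, a difference of -0.73 (exact p = 0.1; adjusted 0.15). It was -1.09 on the slide with both tissues, -0.90 in the later-date pair and -0.64 in the earlier-date samples. Psmb8 minus Psmb5 was -0.38, -1.03 and -0.72 in spleen and -0.71, -0.93 and -1.08 in heart, which overlapped, with a difference of -0.20 (exact p = 0.5; adjusted 0.5) that was 0.01 on the slide with both tissues. In the pairs without overlap, the level of Psmb7 itself rose in heart by 1.22. Psmb6 differed by 0.63, Psmb10 by 0.49 and Psmb9 by -0.22, none of which passed the test.

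**Figure D5:**
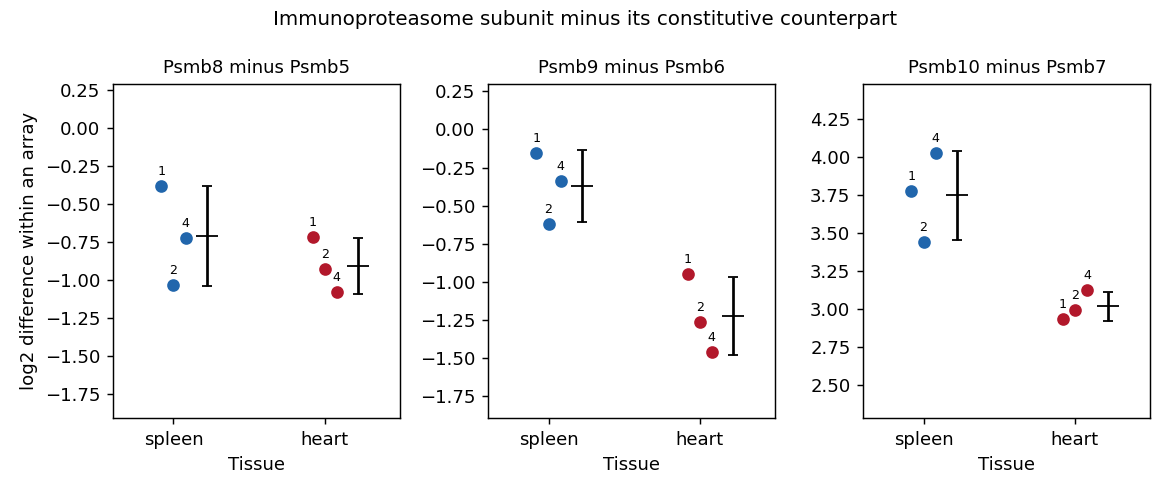
Within-array log2 difference between each immunoproteasome subunit and its constitutive counterpart, for spleen (blue) and heart (red); points are samples labelled by number, and bars are the mean and SD of 3 samples. Hearts lie below spleens without overlap for Psmb9 minus Psmb6 and Psmb10 minus Psmb7, and the tissues overlap for Psmb8 minus Psmb5.

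Psme3, which codes for the nuclear activator of the core particle that acts without ubiquitin, had the largest rise of the family (probe at chr11:101184289-101184348). Its levels were 1.83, 2.42 and 3.25 in spleen 1, 2 and 4 and 4.40, 4.61 and 4.44 in heart 1, 2 and 4. The spleens were spread over a wide range and the hearts lay close together above them. The rise was 1.99 ± 0.36 (SE, n = 3 per tissue), or 3.96-fold, with a limma adjusted p of 0.0189. It was 1.15 on the slide with both tissues, 1.19 in the later-date pair and 2.38 in the earlier-date samples, and the adjusted p ranged from 0.00313 to 0.267 over 21 alternatives. The call was lost without spleen 2, without any 1 heart and with the slide as a fixed block.

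Psme4, the large activator linked to chromatin and DNA repair, had levels of -1.56, -1.33 and -1.05 in spleen and -0.88, -0.46 and -0.88 in heart. All hearts lay above all spleens, and the difference was 0.57 ± 0.22 (SE; limma adjusted p = 0.137). Psmf1, which codes for a protein that inhibits the core particle in vitro, had levels of -0.54, -0.43 and -1.34 in spleen and -0.52, -0.39 and -0.41 in heart, a difference of 0.33 ± 0.27 (SE; limma adjusted p = 0.464). Only spleen 4 stood apart from the other 5 arrays.

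In the regulatory particle, all 17 genes for its base and lid lay above 0 and 4 of them, Psmc1, Psmd1, Psmd11 and Psmd12, rose in heart. The median difference was 0.49, and 11 of the 17 had all heart values above all spleen values. Of all genes tested, 58% lay above 0, 8.89% rose and 24.1% had all hearts above all spleens, with a median of 0.10. With quantile scaling 15 of the 17 were above 0 and none of the 4 passed the test. Their median was then 0.25 for the 17, against 0.04 over all genes. Psmc1, an ATPase of the ring that unfolds substrates (probe at chr12:101361515-101361574), had levels of 3.50, 3.83 and 3.82 in spleen 1, 2 and 4 and of 4.55, 4.51 and 4.40 in heart 1, 2 and 4. It rose by 0.77 ± 0.18 (SE, n = 3 per tissue; limma adjusted p = 0.0351), and its second probe had a difference of 0.72 ± 0.20 (SE; limma adjusted p over probes = 0.0625). The samples of each tissue lay close together. Psmc3, the ATPase with the smallest difference, had levels of 4.36, 4.93 and 4.56 in spleen and 4.96, 4.86 and 4.98 in heart, a difference of 0.31 ± 0.20 (SE; limma adjusted p = 0.342) that was -0.08 with quantile scaling. Spleen 2 stood among the hearts.

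Psmd1, the large scaffold of the base (probe at chr1:88035777-88035836), had levels of 2.35, 2.77 and 2.45 in spleen and of 3.32, 3.15 and 3.28 in heart, and rose by 0.72 ± 0.19 (SE; limma adjusted p = 0.0477). Psmd11, a lid subunit (probe at chr11:80283406-80283920), had levels of 2.10, 2.25 and 2.09 in spleen and of 2.94, 2.75 and 2.78 in heart, and rose by 0.68 ± 0.16 (SE; limma adjusted p = 0.0398). Psmd12, a further lid subunit (probe at chr11:107358963-107359022), had levels of 2.77, 2.89 and 2.98 in spleen and of 3.50, 3.48 and 3.59 in heart, and rose by 0.64 ± 0.16 (SE; limma adjusted p = 0.0453). None of the 3 overlapped between the tissues. Differences on the slide with both tissues were 0.73 for Psmc1, 0.87 for Psmd1, 0.85 for Psmd11 and 0.51 for Psmd12. Over 21 alternatives the limma adjusted p ranged from 0.0251 to 0.374 for Psmc1, 0.0406 to 0.328 for Psmd1, 0.0336 to 0.276 for Psmd11 and 0.0307 to 0.487 for Psmd12. The call was lost in 12 of the 21 for Psmc1, 16 for Psmd1, 14 for Psmd11 and 16 for Psmd12. The remaining members of the particle had differences of 0.31 to 0.76. The smallest was that of Psmd4, a receptor for ubiquitin chains, with levels of 3.94, 4.31 and 4.33 in spleen and 4.54, 4.34 and 4.63 in heart (0.31 ± 0.19, SE; limma adjusted p = 0.331; -0.07 with quantile scaling).

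Of 7 chaperones that assemble the proteasome none passed the test, with 1 (Psmd5) lower at an unadjusted p under 0.05. Of all genes tested, 8.89% were called higher and 6.5% lower, and 13.7% were lower at that unadjusted p. The 7 chaperones had a median of 0.15, and 4 of the 7 lay above 0 (57.1%, against 58% of all genes tested). Psmd5, a chaperone of the ATPase ring that is released from the finished particle (probe at chr2:34708108-34708167), had levels of 1.02, 0.97 and 1.19 in spleen 1, 2 and 4 and of 0.22, 0.64 and 0.17 in heart 1, 2 and 4. It was the only member with all hearts below all spleens. The difference was -0.72 ± 0.20 (SE, n = 3 per tissue; limma adjusted p = 0.0574, in a range of 0.0381 to 0.290 over 21 alternatives), and it passed the test with normexp background correction, with quantile scaling and in the deposited value table. On the slide with both tissues it was -0.96. Psmg4, an assembly factor of the alpha ring, had the largest difference of the 7 in the other direction, with levels of 2.15, 2.46 and 3.20 in spleen and 3.04, 2.91 and 3.14 in heart, a difference of 0.43 ± 0.29 (SE; limma adjusted p = 0.372). Spleen 4 lay above all hearts. Psmg2 and Psmg3 had -0.06 and -0.03, and Psmd9 had 0.18 on the probe that stood for it and -0.31 on its second probe. Psmc3ip, the gene matched by name only, had levels of -1.26, -0.50 and -3.44 in spleen and of -4.37, -4.30 and -3.18 in heart. Spleen 4 lay among the hearts, and the difference of -2.21 ± 0.77 (SE) did not pass the test (limma adjusted p = 0.105).

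Among 26 proteasome partners outside the rule (ubiquitin genes, shuttles, deubiquitinases and factors that control the subunits' genes), 24 were tested. Of the 24, 4 rose in heart (16.7%, against 8.89% of all genes tested) and none fell (against 6.5%). Their median was 0.41, and 20 lay above 0 (83.3%), against a median of 0.10 and 58% over all genes. Zfand2a, which codes for a stress-induced zinc finger protein that binds the proteasome, had levels of 0.47, 0.51 and 0.21 in spleen and of 2.52, 2.49 and 2.42 in heart, and rose by 2.09 ± 0.17 (SE; limma adjusted p = 0.00181). Zfand5, a relative that stimulates the particle, rose by 1.20 ± 0.26 (SE; limma adjusted p = 0.0284), and Usp14, a deubiquitinase of the regulatory particle, by 0.62 ± 0.16 (SE; limma adjusted p = 0.0481). The samples of Zfand2a were tight within each tissue. Leaving out any 1 array other than spleen 4 left Zfand2a as the 1 call, where 2.12% to 9.28% of all genes were called higher. Without spleen 4, 5 were called, where 13.9% of all genes were higher. With quantile scaling the 2 calls were Zfand2a and Zfand5, where 8.4% of all genes were higher. With the slide as a fixed block 0 of the 24 were called, where 0.44% of all genes were higher. Their median was then 0.23 and 16 lay above 0. The median of all genes was 0.01, and 50.6% of all genes were above 0 on the slide with both tissues. With the date as a block 3 were called (8.12% of all genes were higher), without Usp14. The limma adjusted p of Usp14 ranged from 0.0406 to 0.386 over 21 alternatives. Nfe2l1, which codes for a factor that raises transcription of subunit genes, had a difference of 0.26 ± 0.36 (SE; limma adjusted p = 0.672), and Pomp, the maturation factor of the core, 0.41 ± 0.30 (SE; limma adjusted p = 0.398).

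Of 22 genes for peptide supply to MHC class I and the response to interferon gamma, all were tested and none passed the test in limma. At an unadjusted p under 0.05, 1 was higher and 2 were lower, against 17.9% and 13.7% of all genes tested. Their median was 0.23 with 16 above 0 (72.7%), against a median of 0.10 and 58% over all genes. With quantile scaling their median was -0.01 with 10 above 0, against a median of 0.04 over all genes. Tap1, the neighbour of Psmb9, had levels of -0.18, -0.76 and 0.13 in spleen and of -0.94, -1.30 and -1.11 in heart, a difference of -0.85 ± 0.27 (SE; limma adjusted p = 0.0839). All its hearts lay below its spleens, whereas those of Psmb9 overlapped. Without spleen 1 there was 1 call in this list (Socs1, higher), without spleen 2 there was 1 (Tap1, lower), and without spleen 4 there were 3 (Ifngr2, Irgm1 and Jak2, higher). The matching shares of all genes tested were 9.28% higher, 4.76% lower and 13.9% higher.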

How the data were processed

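Signals of the 6 arrays were read from the deposited scanner files, which give the authors' intensity per spot on a linear scale. The submitters' processing notes name Agilent Feature Extraction (version 10.7.3.1). The processed intensity is already background-corrected and not scaled between arrays, per the file headers. The deposited value table holds log2 values. Their differences between arrays matched quantile-normalized log2 signals (r of 0.9998 to 1.000 over 19313 probes), every column's median was 0, and the subtracted baseline is unknown, so the table served as an alternative only. The deposited 0/1 flags per spot served as filters.

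Control and outlier spots were left out, spots of a probe averaged, and log2 intensities taken relative to each array's 75th percentile. Percentiles lay at intensities of 1451 to 1870, no spot was saturated, and 54.8% ± 1.87 of probes in heart and 59.9% ± 3.89 in spleen (SD, n = 3) were well above background. The number of arrays limits the precision. Genes were named through a RefSeq gene table of GRCm38.p6, used for names only (26406 of 39429 probes; 60 of the 61 member probes), and otherwise as in the files. Probe positions are those of the files (mm9), and exons and UTRs were not analysed here.

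Genes well above background on all 3 arrays of a tissue were fitted with limma 3.58.1 (lmFit and eBayes, two-sided) in R 4.3.3, after a check on simulated data, with Benjamini-Hochberg adjustment over 16358 genes. Calls are at an adjusted p under 0.05. The R package data.table (version 1.17.8), pandas 2.3.3, Python 3.11.15 and matplotlib 3.10.9 handled files and figures. The members, roles, gene lists and alternatives were chosen with earlier results of these data known. Values in every sample are given for the immunoproteasome group, their counterparts, the other activators, the inhibitor, called members and the members with the extreme differences in each role class; called members of the partner and interferon lists are named. Psmc3ip, the 8 myeloid markers, Tap1, Nfe2l1 and Pomp are named beside them, chosen after their values were seen. Some members of these lists are not reported here by name; counts include them.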

Additional observations from a re-analysis of the deposited data

How the results depend on the processing

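Of 987 results of single members under the alternatives, 865 kept their direction and side of the threshold, 81 lost a call, 14 gained one and 27 changed sign. Only the 7 called members could lose a call, so most of the 865 are results of members without one. Of 21 alternatives each, the call was lost in 16 for Psmd1 and Psmd12 and in 14 for Psmd11. It was lost in 12 for Psmb2 and Psmc1, in 6 for Psmb7 and in 5 for Psme3. Members called higher numbered 2 with quantile scaling, median scaling or the deposited value table (4.26% of members, against 8.4%, 7.89% and 8.37% of all genes), 2 with no filter on dim probes (4.08% against 3.28%), 3 with the date as a block or array weights per tissue (6.38% against 8.12% and 8.58%), 1 with the earlier date only or the replicate block (2.13% against 5.66% and 5.62%), 0 with the slide as a fixed block (against 0.44%) and 9 with a trend and robust prior (19.1% against 8.94%). The count ranged from 0 to 12 when each sample was left out in turn. Psmd5 made the count called lower 1 with normexp, quantile scaling or the deposited table, and Psmc3ip made it 1 with the earlier date only. Leaving out a sample gave 0 to 1 called lower and 0 to 1 immunoproteasome genes called. The members' median was 0.14 with quantile scaling and 0.14 in the deposited table. Causes were not tested.

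Signs changed as follows. Quantile scaling gave -0.068 for Psma7, -0.16 for Psmb1, -0.10 for Psmb3, -0.095 for Psmb8, -0.081 for Psmc3, -0.067 for Psmd4 and -0.069 for Psme1. The deposited table gave -0.065 for Psma7, -0.17 for Psmb1, -0.10 for Psmb3, -0.093 for Psmb8, -0.083 for Psmc3, -0.064 for Psmd4 and -0.071 for Psme1. Median scaling gave 0.061 for Psmg2 and 0.099 for Psmg3. The mean of all probes gave -0.064 for Psmd9 and -0.011 for Psme2. The slide as a fixed block gave -0.013 for Psma1, -0.051 for Psmb1, -0.025 for Psmc4, -0.028 for Psmd6 and -0.16 for Psmg4. Psmg3 was 0.24 with the earlier date only. With each sample left out in turn it ranged from -0.14 to 0.18 (above 0 without spleen 4 or heart 4), and Psmg2 ranged from -0.14 to 0.00401 (above 0 without heart 1). Within the slide with both tissues Psmb8 minus Psmb5 was 0.0072, against -0.20 over all samples. The other two paired differences stayed below 0 there and in the samples of either date.

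Whether samples with the same replicate number come from the same mouse is unknown. Deviations of heart and spleen with the same number correlated at -0.05, 0.04 and 0.01 over 16297 genes. Those with different numbers correlated at -0.07 to 0.05, so with 3 samples per tissue these values cannot decide the pairing. With the replicate block 1 member was called (5.62% of all genes higher and 4.07% lower). Signal over background limits Psma8 and Psmb11, for which no difference could be measured.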
